A study of Mus musculus with 54 samples.

Results

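Expression of the proteasome genes was measured in a hippocampal region, the dentate gyrus (DG), and in a cortical one, the lateral part of the entorhinal cortex (LEC), of mice that received the AMPK agonist AICAR or had access to a running wheel. Members were all probes of the Illumina mouse bead array whose annotated symbol begins with Psma to Psmg followed by a number. This gave 45 of the 16593 genes that the array annotation names, measured by 67 of its 25697 probes. Of these, 58 probes were above background in DG and 57 in LEC, by the rule of a detection p-value of at most 0.02 on every array of at least 1 group. The 58 probes cover 41 genes. The other 4 genes were Psma1, Psma6 and Psmc6, whose probes were detected on no array, and the inducible subunit Psmb8, which was detected on 3 DG and 2 LEC arrays. In all, 49 of the 67 probes were detected on all 54 arrays and 8 on no array. By role, the probes above background were 6 of the 20S alpha ring, 10 of the constitutive 20S beta ring, 3 of the inducible beta subunits, 6 of the 19S ATPases, 14 of the 19S non-ATPases, 6 of the activators and 10 of the assembly chaperones. A further 3 probes belong to Psme3ip1 and Psmc3ip, which meet the rule by spelling only and are named for proteins that bind Psme3 and Psmc3. The inhibitor Psmf1 was not analysed here.

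All mice were male C57BL/6J, 1 month old at the start and housed one to a cage. The treated groups of each tissue were ACR7 and ACR14 (daily intraperitoneal AICAR at 500 mg/kg in saline for 7 or 14 days) and RUN7, RUN14 and RUN28 (wheel access for 7, 14 or 28 days, with daily saline). Their controls were CTR7, 2 sets of CTR14 and CTR28 (daily saline, no wheel). The methods describe experiments of up to 14 days, so the saline, age at the start and housing of the 28-day groups are assumed from those. ACR7 and RUN7 share the CTR7 arrays, whereas RUN14 was compared with set 1 of CTR14 and ACR14 with set 2. Each group had 3 arrays, apart from set 1 of CTR14 in DG (n = 2) and CTR28 in LEC (n = 4), giving 26 DG and 28 LEC arrays. Each array of a tissue came from a different mouse, and 21 of the 33 mice gave both tissues. For each group the methods took forward the RNA samples that were purest and most concentrated. Both tissues are mixtures of cell types, so fewer cells of a type and less RNA per cell cannot be told apart in any value that follows.

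The proteasome is the protease that degrades ubiquitin-tagged proteins. Its 20S core is a barrel of alpha and beta rings, in which Psmb5, Psmb6 and Psmb7 cut after hydrophobic, acidic and basic residues. The 19S cap recognises and unfolds the substrate with ubiquitin receptors (Psmd2, Psmd4), a deubiquitinase (Psmd14) and a ring of ATPases (Psmc genes). Interferon induces Psmb8, Psmb9 and Psmb10, which replace the constitutive catalytic subunits in the immunoproteasome, and the activators Psme1 to Psme4 can take the place of the 19S cap. In neurons the system takes part in protein turnover at synapses. When proteasome activity falls, the transcription factor encoded by Nfe2l1 raises the subunit genes together, through antioxidant response elements in their promoters.

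The promoters of 4 core subunits that were called higher in LEC after 28 days of running are printed here, as sequences that belong to genes whose values moved together. Each runs from 250 bases before to 50 bases after the start used for that promoter (GRCm38.p6). That is the start of the gene in RefSeq for Psmb5, Psmb3 and Psma7, but a later position for Psmb6. Motif matches are in capitals: TGACNNNGC, the core of the antioxidant response element, in Psmb5 and Psmb6, and CCAAT, the CCAAT box, in Psmb3 and Psma7.
Psmb5 (chr14:54617946-54618245, minus strand): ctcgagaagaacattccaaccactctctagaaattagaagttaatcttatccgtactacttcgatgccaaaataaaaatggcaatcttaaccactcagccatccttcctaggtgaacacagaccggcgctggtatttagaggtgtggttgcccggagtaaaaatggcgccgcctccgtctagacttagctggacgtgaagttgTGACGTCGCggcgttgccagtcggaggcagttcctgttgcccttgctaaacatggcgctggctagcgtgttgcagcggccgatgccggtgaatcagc
Psmb6 (chr11:70525107-70525406, plus strand): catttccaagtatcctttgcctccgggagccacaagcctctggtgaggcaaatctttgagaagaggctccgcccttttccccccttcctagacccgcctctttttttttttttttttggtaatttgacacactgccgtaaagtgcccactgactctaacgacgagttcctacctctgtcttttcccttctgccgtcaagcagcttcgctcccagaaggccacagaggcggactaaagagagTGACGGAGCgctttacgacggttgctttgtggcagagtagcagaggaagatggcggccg
Psmb3 (chr11:97703184-97703483, plus strand): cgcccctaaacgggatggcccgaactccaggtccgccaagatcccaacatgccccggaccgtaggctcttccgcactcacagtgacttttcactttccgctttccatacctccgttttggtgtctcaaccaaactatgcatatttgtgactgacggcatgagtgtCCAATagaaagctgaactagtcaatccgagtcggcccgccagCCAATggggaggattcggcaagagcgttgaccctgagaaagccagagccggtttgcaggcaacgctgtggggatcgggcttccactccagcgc
Psma7 (chr2:180042415-180042714, minus strand): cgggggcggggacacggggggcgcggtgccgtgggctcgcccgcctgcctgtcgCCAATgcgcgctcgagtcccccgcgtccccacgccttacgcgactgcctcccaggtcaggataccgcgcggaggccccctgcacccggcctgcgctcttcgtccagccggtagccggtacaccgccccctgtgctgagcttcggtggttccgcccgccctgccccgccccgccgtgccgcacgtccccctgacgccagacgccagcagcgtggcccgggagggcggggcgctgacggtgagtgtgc
Psmb5, the chymotrypsin-like subunit, has TGACGTCGC with its first base at position -47 from the start, and Psmb6, the caspase-like subunit, has TGACGGAGC at -9. The RefSeq gene of Psmb6 begins earlier, at base 70525324, so its match lies after the start of the gene. Psmb3 has CCAAT at -85 and -43, and the alpha-ring gene Psma7 has it at -196. Both strands were searched, the 2 motifs were counted apart, and a base could belong to both. TGACNNNGC was found in 6 of the 43 promoters held for 39 of the 45 genes (14%), against 12.4% of all 32851 promoters in the table. CCAAT was found in 15 of the 43 (34.9%), against 37.4% of all. The other genes with TGACNNNGC were Psmc6, Psmd9, Psmd12 and Psme4. Psmb1, Psmb2 and Psmb7 were among the genes with no entry.

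Between 11495 and 13219 probes were detected per array (median 12060), and arrays of 1 group correlated at r = 0.956 to 0.994 over the probes of their tissue. All values are log2 intensities scaled within each array and given in log2 units from the array mean, so levels of different probes are not compared. The tissue labels were checked by markers. The granule-cell markers set DG apart, with all 3 probes above LEC (median log2 difference 3.17), and all 6 striatal probes were lower (median -0.67). In DG the choroid plexus markers varied between arrays of 1 group, with summed intensities of 581.8 to 30985.7 in set 2 of CTR14. The sums were 528.6 to 30537.4 in ACR7 and 395.6 to 23301.4 in ACR14, against 327.8 to 399.3 in CTR7.

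In DG against LEC, over all treatments, 33 of the 58 proteasome probes differed: 13 were higher and 20 lower in DG (limma, mouse as block, Benjamini-Hochberg over 13067 probes). At an unadjusted p under 0.05 the members numbered 35 (all probes, 71.3%). This was against a background of 37% of all probes called higher and 31.7% called lower, so the tissues differed over most of the array. The median difference of the members was -0.03. By role, all 6 alpha-ring probes were higher in DG (3 called), while 9 of the 14 probes of 19S non-ATPases were called lower and none higher. Of the 10 constitutive beta probes 2 were called higher and 3 lower, of the 6 ATPase probes 2 higher and 3 lower, and of the 10 assembly probes 2 higher and 1 lower. The DG and LEC arrays overlapped for every member, but the share of all probes without overlap is not given, so this is a description only.

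Psmb10, the inducible subunit that replaces Psmb7, had the lowest differences of DG from LEC among the members, along with a Psmd11 probe (-0.66). Its first probe had 1.59 to 2.68 (median 2.26) on DG arrays and 2.30 to 3.25 (median 2.86) on LEC arrays, a log2 difference of -0.67 (SE 0.065, adjusted p = 3.65e-12). Its second probe had 1.88 to 2.95 (median 2.54) in DG and 2.56 to 3.56 (median 3.11) in LEC, a difference of -0.58 (adjusted p = 4.34e-11). On either probe DG was the lower tissue in 18 of the 21 mice that gave both. Psmb9, the inducible counterpart of Psmb6, did not share this pattern (difference -0.00, adjusted p = 0.977). It was near background, being detected on 18 DG and 16 LEC arrays. Among 17 probes for interferon response and antigen presentation, 9 were called higher and 5 lower in DG.

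Psmd11 and Psmd12 are structural subunits of the 19S lid. Psmd11 was lower in DG in 21 of 21 mice on one probe (range -1.23 to -0.40, median -0.97 in DG, and -0.94 to 0.48, median -0.27 in LEC), with a difference of -0.66 (adjusted p = 5.04e-17). That probe was above background on 5 of the 26 DG arrays, so the DG level is uncertain, and the brighter probe of Psmd11 gave -0.05 (adjusted p = 0.313). Psmd12 showed the same kind of split, with -0.47 on its dimmer probe (adjusted p = 2.66e-10, lower in 19 of 21 mice) and -0.10 on its brighter one (adjusted p = 0.0301). The 2 probes of Psmd11 and of Psmd12 also did not track each other across DG arrays (r = -0.14 and -0.36 over 26 arrays), so these genes have no single tissue difference in these data. Of the other members lower in DG, Psmb7, the trypsin-like subunit, differed by -0.27 on one probe (adjusted p = 9.02e-04) but by -0.09 (adjusted p = 0.0393) and 0.03 (adjusted p = 0.756) on the others. The ATPase Psmc5 differed by -0.23 (adjusted p = 1.29e-05) on one probe and 0.02 (adjusted p = 0.649) on the other. Psmd4, a ubiquitin receptor, differed by -0.20 (adjusted p = 0.00474), a call that was lost under quantile and neqc normalization, and Psmb6 by -0.19 (adjusted p = 0.0022). The deubiquitinase Psmd14 was also lower (-0.17, adjusted p = 0.0112).

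Higher in DG was Psmc3ip, known for its part in meiotic recombination, with 0.13 to 1.17 (median 0.84) in DG and -0.25 to 0.62 (median 0.21) in LEC. The difference was 0.60 (adjusted p = 1.01e-13), and DG was higher in 20 of 21 mice. Psme4, which encodes the activator PA200, was next. Its bright probe had 2.47 to 3.49 (median 2.84) in DG and 2.16 to 3.04 (median 2.55) in LEC, a difference of 0.34 (adjusted p = 9.38e-09, higher in 19 of 21 mice). Its dim probe gave 0.57 (adjusted p = 5.84e-11) but was detected on 21 DG arrays and on 1 of 28 LEC arrays. Both probes of this activator placed DG above LEC, with overlapping ranges. Psmb5 had 2.36 to 3.18 (median 2.90) in DG and 2.17 to 3.10 (median 2.57) in LEC, a difference of 0.21 (adjusted p = 4.47e-04, higher in 17 of 21 mice). The 19S assembly chaperone Psmd5 (0.29, adjusted p = 0.00121), the alpha subunit Psma4 (0.22, adjusted p = 3.15e-06), the activator subunit Psme1 on one probe (0.22, adjusted p = 4.62e-05, against -0.02, adjusted p = 0.767, on the other) and the ATPase Psmc3 (0.18, adjusted p = 2.57e-04) were also higher. The assembly chaperone Psmg1 differed by 0.16 (adjusted p = 0.00694). Psme2 (0.09, adjusted p = 0.0918), Psme3, Psmd2 and Psmg2 were not called. Of 34 probes for partners of the proteasome, 10 were called higher and 13 lower in DG, among them Nfe2l1 (-0.61, adjusted p = 6.88e-14), the core assembly factor Pomp (-0.26), the cap-bound deubiquitinase Usp14 (-0.47) and the neuronal ubiquitin hydrolase Uchl1 (-0.77), all lower.

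**Figure D1:**
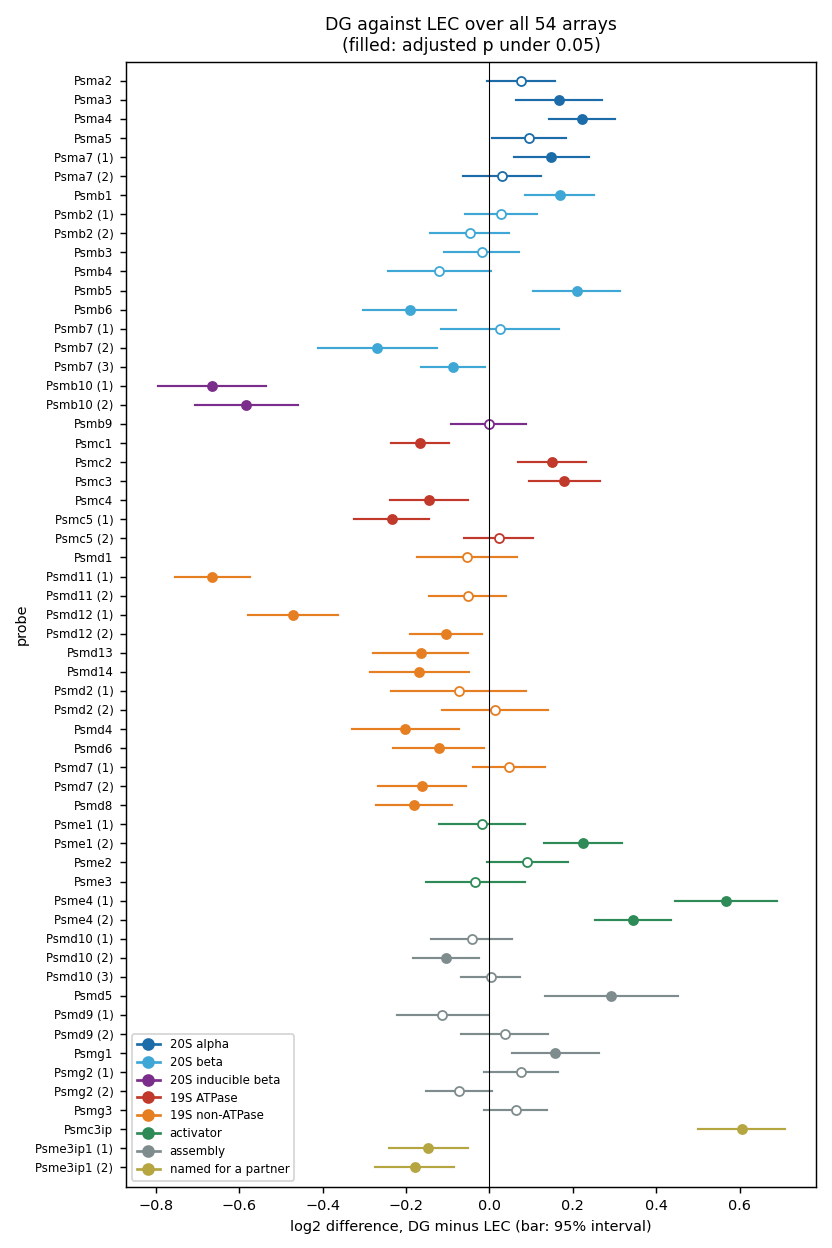
Log2 difference of DG minus LEC for each proteasome probe over all 54 arrays, with the 95% interval as a bar and filled points for an adjusted p under 0.05. Both Psmb10 probes lie at the low end (-0.67 and -0.58), with a Psmd11 probe (-0.66) between them. Psmc3ip and Psme4 lie at the high end (0.60 and 0.57), while the 6 alpha-ring probes lie between 0.03 and 0.22.

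Across the 10 treatment comparisons, proteasome probes were called in 2: LEC RUN28 against CTR28 (15 higher, none lower) and DG RUN7 against CTR7 (4 higher, 1 lower). In the other 8, no member had an adjusted p under 0.05 by limma, and the members with an unadjusted p under 0.05 are given beside the share of all probes that met the same rule.

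**Figure D2:**
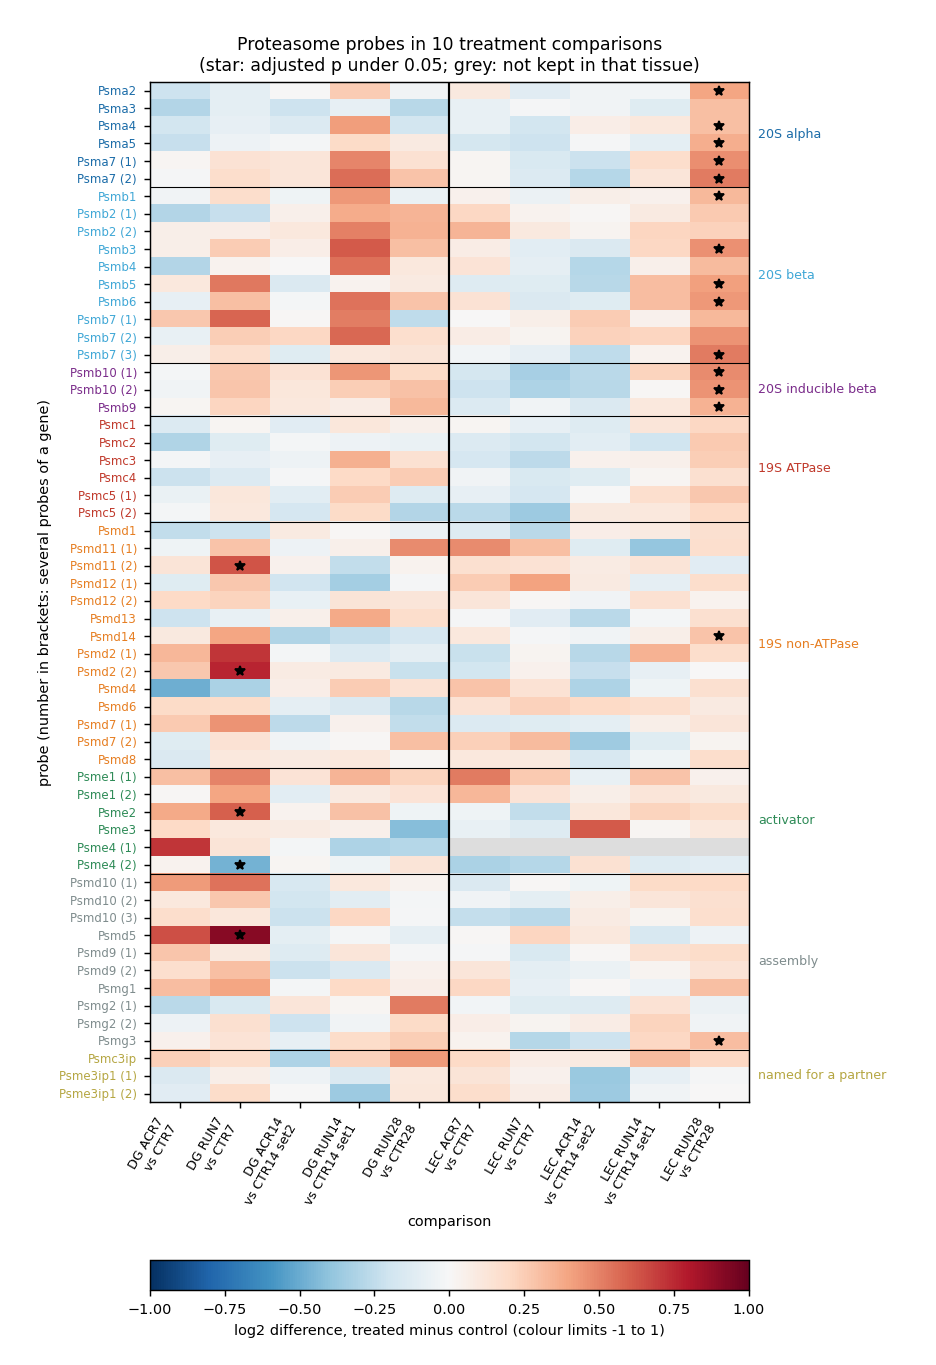
Log2 difference of each treated group from its controls (columns) for each proteasome probe (rows, by class), with a star for an adjusted p under 0.05 and grey where a probe was below the detection rule in that tissue. The 15 stars of LEC RUN28 lie mainly in the alpha and beta rings of the 20S core, and the 5 of DG RUN7 in the 19S cap, its chaperones and the activators.

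In LEC after 28 days of running, the 20S core was higher than in CTR28. Of 57 probes, 15 were called higher and none lower, against 6.34% of all 12233 probes called higher and 7.32% called lower. The 15 probes (26.3% of the members) stand for 13 genes, and 26 probes had an unadjusted p under 0.05 (all probes, 29.6%). The difference was above 0 for 51 of the 57, with a median of 0.20, against -0.01 over all probes. The RUN28 and CTR28 arrays did not overlap, with RUN28 higher, for 21 members (all probes, 13.7%), and with RUN28 lower for none (all probes, 13.7%). By role, 5 of 6 alpha-ring probes (median 0.38), 5 of 10 constitutive beta probes (median 0.37) and 3 of 3 inducible beta probes (median 0.45) were called. In the 19S cap, 1 of 14 non-ATPase probes (median 0.16) and 0 of 6 ATPase probes (median 0.23) were called, although all 6 ATPase differences were above 0. None of 5 activator probes (median 0.10) and 1 of 10 assembly probes (median 0.16) was called.

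Psma7, an alpha-ring subunit, had 4.05, 4.20 and 4.21 in RUN28, against 3.65, 3.47, 3.77 and 3.66 in CTR28. The difference was 0.52 (SE 0.11, adjusted p = 0.0047), and its second probe, with 3.96, 3.98 and 4.15 in RUN28 against 3.57, 3.34, 3.78 and 3.56 in CTR28, gave 0.47 (adjusted p = 0.0075). The groups did not overlap on either probe. Psmb3, a non-catalytic beta subunit, had 4.64, 4.56 and 4.69 in RUN28, against 4.16, 4.04, 4.25 and 4.23 in CTR28 (difference 0.46, SE 0.10, adjusted p = 0.00616). Of the other alpha subunits, Psma2 had 5.27, 5.29 and 5.48 in RUN28, against 4.87, 4.76, 5.22 and 4.95 in CTR28 (0.39, adjusted p = 0.0159). All 3 runners were above all 4 controls for both genes. Psma5 (0.36, adjusted p = 0.0492) and Psma4 (0.30, adjusted p = 0.0353) were called, with an overlap between groups for Psma5, and Psma3 was not (0.30, adjusted p = 0.0632). Psmb1 of the beta ring differed by 0.32 (adjusted p = 0.0395).

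The 3 catalytic subunits were each called higher, Psmb7 on 1 of its 3 probes. Psmb5 had 2.91, 2.95 and 3.01 in RUN28, against 2.51, 2.42, 2.73 and 2.53 in CTR28, a difference of 0.41 (SE 0.11, adjusted p = 0.0203) with no overlap. Psmb6 had 4.37, 4.40 and 4.51 in RUN28, against 3.89, 3.80, 4.37 and 3.90 in CTR28 (0.43, SE 0.13, adjusted p = 0.028). Its groups touched, since replicate 3 of CTR28 lay at the level of the lowest runner. Psmb7 had 2.35, 2.33 and 2.31 in RUN28, against 1.82, 1.96, 1.77 and 1.70 in CTR28 on the dimmest of its 3 probes, a difference of 0.52 (SE 0.10, adjusted p = 0.00314). The other 2 probes of Psmb7 were not called and gave 0.45 (adjusted p = 0.0891) and 0.33 (adjusted p = 0.188), and Psmb4 gave 0.32 (adjusted p = 0.116).

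The inducible subunits were higher as well. Psmb10 had 2.93, 2.99 and 3.14 in RUN28, against 2.50, 2.41, 2.79 and 2.49 in CTR28 (0.47, SE 0.14, adjusted p = 0.0259). Its second probe had 3.08, 3.20 and 3.27 in RUN28, against 2.54, 2.61, 3.01 and 2.79 in CTR28 (0.45, adjusted p = 0.0205), so both probes were without overlap. Psmb9 had -0.41, -0.49 and -0.20 in RUN28, against -0.76, -0.82, -0.61 and -0.66 in CTR28 (0.35, adjusted p = 0.0176). It was dim, being above background on 3 of 3 RUN28 and 2 of 4 CTR28 arrays. Psmb8 was detected on 1 of 3 RUN28 and on none of 4 CTR28 arrays and was not tested. Of 14 probes for interferon response and antigen presentation, 2 were called higher (both of Ifit3, 0.40 and 0.36) and 1 lower (the peptide transporter Tap2, -0.42, adjusted p = 0.0482), with a median of 0.15. The MHC light chain B2m gave 0.35 and 0.34 (adjusted p = 0.0705 and 0.065).

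Outside the core, the cap deubiquitinase Psmd14 had 2.15, 2.22 and 2.39 in RUN28, against 1.91, 1.87, 2.03 and 2.06 in CTR28 (0.28, adjusted p = 0.0402). Psmg3, a chaperone of core assembly, had 1.30, 1.40 and 1.43 in RUN28, against 1.22, 0.97, 0.98 and 1.08 in CTR28 (0.31, adjusted p = 0.0164). For both, every runner lay above every control. The chaperone Psmg1 (0.30, adjusted p = 0.077) and the ATPases Psmc3 (0.24, adjusted p = 0.0598), Psmc2 (0.26, adjusted p = 0.0728) and Psmc5 (0.27, adjusted p = 0.138) were not called. The ubiquitin receptors Psmd2 (0.18 and 0.00) and Psmd4 (0.16, adjusted p = 0.492), the activators Psme1 (0.10 and 0.05), Psme2 (0.18, adjusted p = 0.251) and Psme3 (0.11, adjusted p = 0.641) and the chaperone Psmg2 (-0.03 and -0.06) were closer to 0. The lowest differences were those of Psmd11 (-0.12, adjusted p = 0.565) and Psme4 (-0.11, adjusted p = 0.597). Of 33 partner probes, 1 was called higher (Zfand2b, 0.38) and 2 lower (Zfand2a, -0.33, and Bag6, -0.31), with a median of 0.09. Nfe2l1 gave -0.36 (adjusted p = 0.0882) and the core assembly factor Pomp 0.29 (adjusted p = 0.197).

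**Figure D3:**
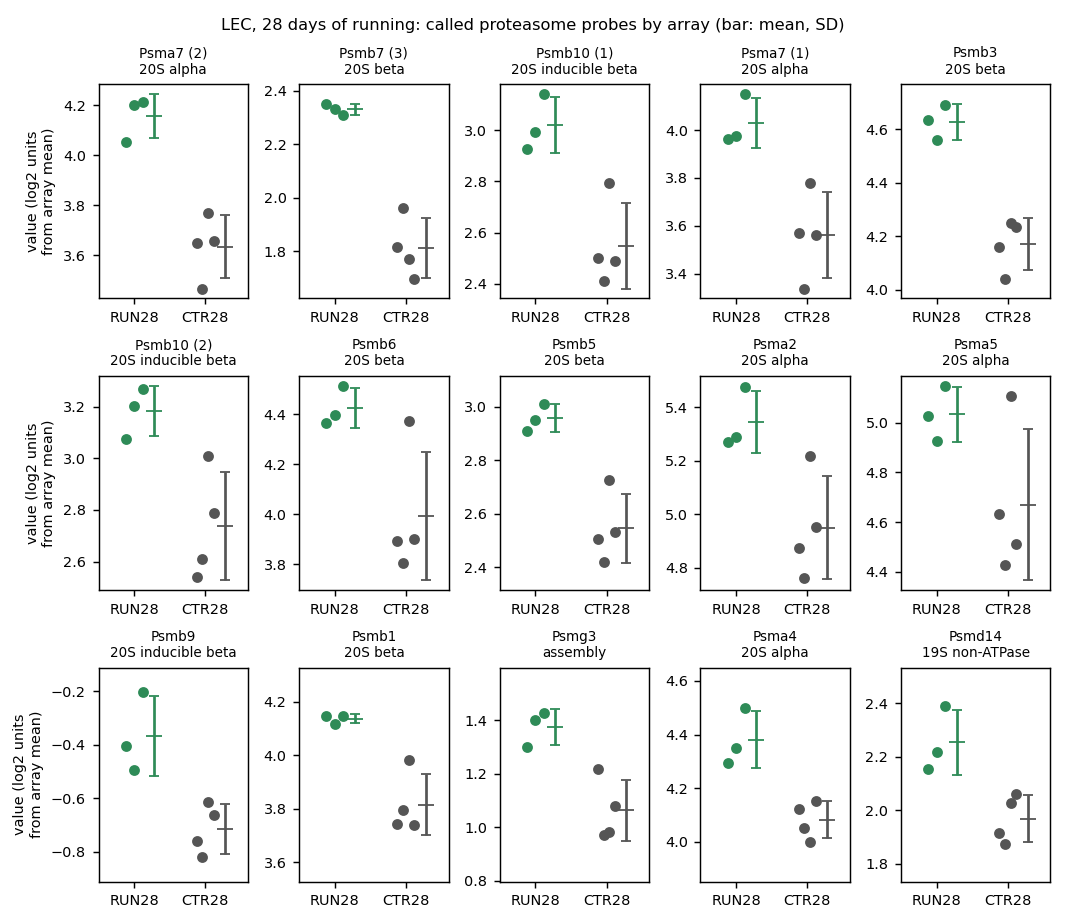
Value per array (log2 units from the array mean) of the 15 called proteasome probes in LEC, RUN28 on the left and CTR28 on the right, 1 panel per probe, with the mean and SD as a bar beside the points. The 3 RUN28 arrays lie above the 4 CTR28 arrays in most panels, with replicate 3 the highest control in most of the core subunits.

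The count of calls moved with single arrays. It was 3 without replicate 3 of RUN28 (all probes, 181 of 12233 higher), 6 without replicate 2 of RUN28 (348) and 4 without replicate 2 of CTR28 (351). It was 8 without replicate 1 of CTR28 (502) and 20 without replicate 3 of CTR28 (929). With every array, 776 of all probes were called higher, so the calls over all probes moved in the same direction. The median of the 57 differences moved less, between 0.18 and 0.24. Psma7 (the probe with a difference of 0.52), Psmb3 and Psmb7 (also the probe at 0.52) were called in every setting tried. The other Psma7 probe lost its call only without replicate 3 of RUN28 (limma, adjusted p = 0.0623). Oligodendrocyte markers moved in the same comparison: 9 of 10 probes were higher (median 0.50), 2 of them called higher and 1 lower, with summed intensities of 28113.6 to 39505.2 on RUN28 arrays and 17054.3 to 26879.3 on CTR28 arrays. All 6 striatal probes were higher without a call (median 0.41), with sums of 3410.8 to 4469.0 in RUN28 and 2115.5 to 3314.0 in CTR28, and 5 of 7 microglial probes were higher (median 0.25, sums 3036.3 to 3582.1 in RUN28 and 2560.4 to 3197.8 in CTR28). All 3 hypothalamic probes were lower without a call (median -0.61, sums 386.2 to 860.4 in RUN28 and 678.1 to 1385.1 in CTR28), and 1 of 5 endothelial probes was called lower. The lowest intensity on any array was 35.3, so the sums include background, and the part of these cell types in the result was not tested.

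The LEC running effect at 28 days was set against that at 7 days, a comparison added after seeing the data. Of 57 members, 16 had a larger running effect at day 28 than at day 7 and none a smaller one (all probes, 7.62% larger and 8% smaller), with a median of 0.29, and 26 had an unadjusted p under 0.05 (all probes, 30.7%). These were 5 of 6 alpha-ring, 4 of 10 constitutive beta, 2 of 3 inducible beta, 3 of 6 ATPase and 2 of 10 assembly probes. The count was 8 without replicate 1 of CTR7 or without replicate 3 of RUN28, and 10 without replicate 3 of RUN7 or without replicate 2 of CTR28. Counts over all probes in these settings are not given, so the moves cannot be set against those of the array. Across all LEC groups, Psma7 averaged 3.94 ± 0.11 in ACR7, 3.79 ± 0.23 in RUN7 and 3.93 ± 0.08 in CTR7, then 3.64 ± 0.22 in ACR14 and 3.93 ± 0.07 in its set 2 controls, 4.05 ± 0.16 in RUN14 and 3.93 ± 0.07 in its set 1 controls, and 4.16 ± 0.09 in RUN28 and 3.63 ± 0.13 in CTR28 (SD, n = 3 each and 4 in CTR28). RUN28 had the highest mean and CTR28 the lowest, next to ACR14. On its called probe, Psmb7 averaged 2.33 ± 0.02 in RUN28 and 1.81 ± 0.11 in CTR28, against 2.05 to 2.30 for the means of the other 7 groups. On another probe it averaged 4.69 ± 0.14 in RUN28 and 4.36 ± 0.10 in CTR28, the second of these being close to the highest of the other means (4.36 in ACR14). Psmb5 averaged 2.96 ± 0.05 in RUN28 and 2.55 ± 0.13 in CTR28, with means of 2.26 to 2.70 in the others, so its CTR28 arrays were not low.

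LEC CTR28 was also compared with LEC CTR7, again added after seeing the data. In CTR28, 2 probes were called higher and 7 lower, against 7.04% of all probes called higher and 8.49% called lower, and 19 members had an unadjusted p under 0.05 (all probes, 30.9%). Higher were Psmd11 (0.53, adjusted p = 0.0104) and Psme1 (0.47, adjusted p = 0.0149), and lower were Psme4 (-0.47, adjusted p = 0.012), Psmb7 on 1 of 3 probes (-0.45, adjusted p = 0.00426), Psmb10 on 1 of 2 (-0.44, adjusted p = 0.0189), Psmd1 (-0.39, adjusted p = 0.0412), Psma4 (-0.33, adjusted p = 0.0193), Psmc2 (-0.29, adjusted p = 0.0435) and Psmg3 (-0.27, adjusted p = 0.0285). The other probes of Psmb7 gave 0.10 (adjusted p = 0.73) and 0.01 (adjusted p = 0.97), that of Psmb10 gave -0.34 (adjusted p = 0.0957), and those of Psmd11 (0.29, adjusted p = 0.114) and Psme1 (0.10, adjusted p = 0.564) were not called either. Without replicate 1 of CTR7, no member was called, and the count over all probes in that setting is not given. CTR28 is the group against which every LEC RUN28 difference above was taken.

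In DG after 7 days of running, 3 genes of the 19S cap and its assembly and the activator gene Psme2 were higher, and the activator gene Psme4 was lower. In RUN7 against CTR7, 4 of 58 probes were called higher and 1 lower, against 4.41% of all 12658 probes called higher and 3.05% called lower, so the share was close to that of the array, and 14 had an unadjusted p under 0.05 (all probes, 24.6%). The difference was above 0 for 45 of the 58 (median 0.17, against 0.06 over all probes), and 22 members had RUN7 above CTR7 without overlap (all probes, 20.3%), with 1 below it (all probes, 13.3%). The calls lay outside the core: 2 in the 19S non-ATPases, 1 in the assembly chaperones and 2 in the activators. Of the alpha ring, 2 of 6 probes were higher and none was called.

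Psmd5, a chaperone of 19S base assembly, had 1.42, 1.64 and 1.39 in RUN7, against 0.83, 0.90 and -0.00 in CTR7 (0.91, SE 0.24, adjusted p = 0.0253). Psmd2, a ubiquitin receptor of the 19S base, had -0.30, -0.07 and -0.12 in RUN7, against -0.63, -0.90 and -1.25 in CTR7 (0.76, SE 0.21, adjusted p = 0.0321). It was detected on 3 of 3 RUN7 and 1 of 3 CTR7 arrays, and its second probe gave 0.71 (adjusted p = 0.0858). The lid subunit Psmd11 had 1.56, 1.51 and 1.71 in RUN7, against 0.82, 1.02 and 1.06 in CTR7 (0.63, SE 0.14, adjusted p = 0.013). Its dimmer probe, above background on 2 of 3 RUN7 and on none of 3 CTR7 arrays, was not called. Because not every RUN7 array was above background, no lower limit of its fold is given. For these 3 genes every RUN7 array lay above every CTR7 array, and replicate 3 of CTR7 was the lowest array for Psmd5 and Psmd2.

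The activators moved in opposite directions. Psme2, a subunit of the interferon-inducible 11S activator, had 0.71, 0.85 and 0.70 in RUN7, against 0.19, 0.43 and -0.16 in CTR7 (0.60, SE 0.17, adjusted p = 0.0353). Psme4 had 2.77, 3.00 and 2.85 in RUN7, against 3.24, 3.31 and 3.48 in CTR7 (-0.47, SE 0.13, adjusted p = 0.0375), while its dim probe gave 0.13 (adjusted p = 0.761). Neither the Psme2 nor the brighter Psme4 probe overlapped between groups. Psme1, the partner of Psme2, gave 0.49 (adjusted p = 0.0596) and Psme3, the nuclear activator, 0.10. Close to the threshold were also the lid subunit Psmd7 (0.45, adjusted p = 0.0529), the chaperone Psmd10 (0.55, adjusted p = 0.0628) and Psmb5 (0.53, adjusted p = 0.0685), where Psmd7 and Psmd10 had lower values on their other probes (0.14, and 0.27 and 0.11). Psmb7 (0.59, adjusted p = 0.103, and 0.25 and 0.16 on its other probes), Psmb6 (0.30), Psmb10 (0.28 and 0.27), Psmb9 (0.21, adjusted p = 0.444), Psmd14 (0.39, adjusted p = 0.29), Psmg1 (0.40, adjusted p = 0.178), Psmg2 (0.16 and -0.16) and Psmd4 (-0.32, adjusted p = 0.361) were not called. Of 34 partner probes, 3 were called higher (both of the shuttle factor Ubqln1, 0.92 and 0.70, and the conjugating enzyme Ube2g1, 0.63), and Nfe2l1 gave -0.30 (adjusted p = 0.2).

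**Figure D4:**
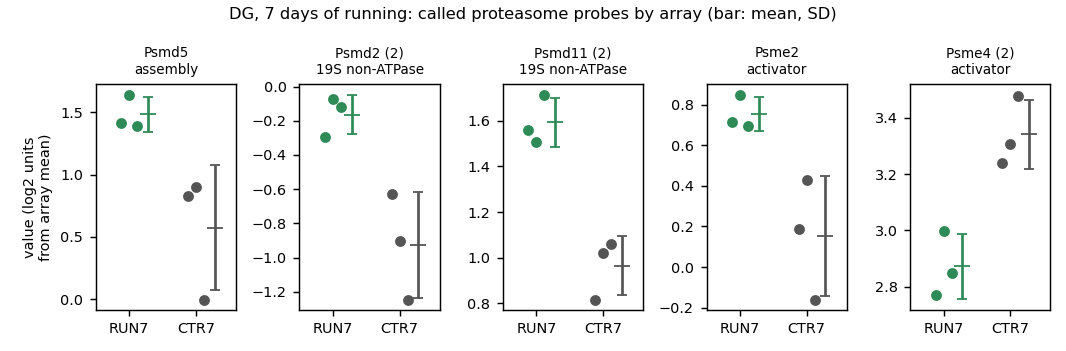
Value per array (log2 units from the array mean) of the 5 called proteasome probes in DG, RUN7 on the left and CTR7 on the right, 1 panel per probe, with the mean and SD as a bar beside the points. Psmd5, Psmd2, Psmd11 and Psme2 are higher in all 3 RUN7 arrays and Psme4 is lower in all 3.

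These calls rested on single arrays, as did those over all probes (558 higher and 386 lower with every array). No member was called without replicate 3 of CTR7 (all probes, 1 higher and 0 lower). None was called without replicate 1 of RUN7 (4 and 2) or replicate 3 of RUN7 (226 and 80). There was 1 without replicate 2 of RUN7 (230 and 243), and there were 9 without replicate 2 of CTR7 (878 and 565). The array SDs of log2 intensity were 1.865 to 1.981 in RUN7 and 1.704 to 1.826 in CTR7. Endothelial markers were higher in 6 of 6 probes, 3 of them called (median 0.50, summed intensity 3337.2 to 4331.7 in RUN7 and 1339.3 to 2621.8 in CTR7). Microglial markers were higher in 7 of 7 probes, 1 of them called (median 0.27, sums 3673.2 to 4758.5 in RUN7 and 2337.9 to 3208.0 in CTR7). Choroid plexus markers were higher in 3 of 3 probes without a call (median 0.38, sums 567.7 to 1064.4 in RUN7 and 327.8 to 399.3 in CTR7). Granule-neuron markers were lower in 3 of 3 probes without a call (median -0.35), with a mean deviation per array of -0.06 to 0.06 in RUN7 and 0.10 to 0.94 in CTR7, though their summed intensities were 11914.6 to 15283.8 in RUN7 and 8265.6 to 12993.7 in CTR7. Of 16 probes for interferon response and antigen presentation, 15 were higher and 1 was called (Ifit3, 0.75, adjusted p = 0.0294). The part of these in the result was not tested.

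The 7-day running effect differed between the tissues for 1 member. Psme2 had an effect 0.84 larger in DG than in LEC (SE 0.20, adjusted p = 0.0249; all probes, 1.28% larger and 1.28% smaller), while 13 members had an unadjusted p under 0.05 (all probes, 20.4%). In LEC it had 0.28, 0.57 and 0.09 in RUN7, against 0.70, 0.39 and 0.60 in CTR7, so 2 of the 3 runners lay below every control and the groups overlapped. The call was lost when replicate 3 of DG CTR7, replicate 1 of DG RUN7, replicate 1 of LEC CTR7 or replicate 3 of LEC RUN7 was left out, each giving 0 calls, and the count was 2 without replicate 1 and 3 without replicate 2 of DG CTR7. Counts over all probes with these arrays left out are not given. For the 28-day effect, added after seeing the data, no member was called (limma, 10 with unadjusted p under 0.05 against 20.8% of all probes, and 2.82% of all probes larger and 1.14% smaller in DG). The median there was -0.18, with 16 of 58 differences above 0. The furthest apart were Psmg2 (0.56, adjusted p = 0.0614) and Psma3 (-0.58, adjusted p = 0.096).

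In the remaining running comparisons no member was called by limma. In LEC RUN7 against CTR7, 11 members had an unadjusted p under 0.05 (all probes, 16.1%, with 0.376% called higher and 0.139% lower), and 22 of 57 differences were above 0 (median -0.08). The highest were Psmd12 (0.40, adjusted p = 0.158) and Psmd7 (0.32, adjusted p = 0.223), whose other probes gave 0.01 and -0.12, and the lowest Psmc5 (-0.36, adjusted p = 0.131) and Psmb10 (-0.33, adjusted p = 0.258). In LEC RUN14 against set 1, 6 had an unadjusted p under 0.05 (all probes, 8.54%, none called), 41 of 57 were above 0 (median 0.09), with Psmd2 (0.35) and Psmc3ip (0.32) highest and Psmd11 (-0.38) and Psmc2 (-0.20) lowest. In DG RUN14 against set 1, 11 had an unadjusted p under 0.05 (all probes, 6.58%, none called), 43 of 58 were above 0 (median 0.12), and 17 had RUN14 higher without overlap (all probes, 11.4%) and 2 had it lower (all probes, 14.3%). Psmb3 led there, with 4.50, 5.02 and 5.03 in RUN14, against 4.22 and 4.26 in set 1 (0.61, adjusted p = 0.744), followed by Psmb7 (0.57), and Psme3ip1 (-0.36) and Psmd12 (-0.34) were lowest. The set 2 controls, of the same age and treatment, had 4.69, 4.59 and 4.45 for Psmb3, so the lowest RUN14 array fell within them. In DG RUN28 against CTR28, 7 had an unadjusted p under 0.05 (all probes, 13.3%, with 0.166% called in each direction), and 36 of 58 were above 0 (median 0.09). Psmg2 had 2.46, 2.50 and 2.39 in RUN28, against 2.28, 2.12 and 1.39 in CTR28 (0.52, adjusted p = 0.158), with replicate 3 of CTR28 the lowest array. The dim Psmd11 probe had -0.65, -0.56 and -0.41 in RUN28, against -1.001, -0.96 and -1.08 in CTR28 (0.47, adjusted p = 0.0704). It was above background on 3 of 3 RUN28 arrays and on none of 3 CTR28 arrays, which made it at least 1.23-fold higher in RUN28, while the brighter Psmd11 probe gave 0.03 (adjusted p = 0.939). Psme3 (-0.42, adjusted p = 0.358) and Psmc5 (-0.29, adjusted p = 0.347) were lowest.

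No member was called after AICAR. In DG ACR7 against CTR7, 6 of 58 had an unadjusted p under 0.05 by limma (all probes, 16.1%, with 0.0079% called higher and none lower), and 29 were above 0, with a median of -0.00. The dim Psme4 probe had 0.02, -0.44 and 0.58 in ACR7, against -0.46, -0.59 and -0.93 in CTR7 (0.71, SE 0.22, adjusted p = 0.119), and Psmd5 had 1.04, 1.12 and 1.50 in ACR7, against 0.83, 0.90 and -0.00 in CTR7 (0.64, adjusted p = 0.181). Both were higher in all 3 ACR7 arrays, and replicate 3 of CTR7 was the lowest array for both. Lowest were Psmd4 (-0.49, adjusted p = 0.246) and Psmc2 (-0.30, adjusted p = 0.289). In DG ACR14 against set 2, no member had an unadjusted p under 0.05 (all probes, 3.93%), no probe of the array was called and the median was -0.02. Psmb7 (0.21) and Psmb10 (0.14) were highest and Psmd14 (-0.30) and Psmc3ip (-0.30) lowest.

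In LEC ACR7 against CTR7, 7 of 57 had an unadjusted p under 0.05 (limma, none called; all probes, 15.5%, with 0.703% called higher and 0.605% lower). Psme1 had 2.43, 2.43 and 2.41 in ACR7, against 1.88, 1.62 and 2.22 in CTR7 (0.52, SE 0.14, adjusted p = 0.0539). Psmd11 had -0.34, -0.28 and -0.17 in ACR7, against -0.91, -0.57 and -0.72 in CTR7 on its dim probe (0.47, adjusted p = 0.099), which was above background on 3 of 3 ACR7 and 1 of 3 CTR7 arrays. These 2 probes were higher in every ACR7 array. The brighter Psmd11 probe had 1.43, 0.92 and 1.28 in ACR7, against 1.00, 1.24 and 0.91 in CTR7 (0.16, adjusted p = 0.602), so its groups overlapped, and the other Psme1 probe gave 0.33 (adjusted p = 0.135). Psme4 (-0.32, adjusted p = 0.238) and Psmc5 (-0.27, adjusted p = 0.264) were lowest. In LEC ACR14 against set 2, 9 had an unadjusted p under 0.05 (limma, none called; all probes, 13.8%, none called), and 14 members had ACR14 lower without overlap (all probes, 7.58%) and 1 higher (all probes, 9.5%), with a median over all 57 of -0.03. Psme3 went the other way, with 2.48, 2.71 and 2.88 in ACR14, against 2.00, 2.10 and 2.14 in set 2 (0.61, SE 0.14, adjusted p = 0.165), followed by Psmb7 (0.25, adjusted p = 0.516). The set 1 controls, at 2.27, 2.34 and 2.33, were also below every ACR14 array. Lowest were both probes of Psme3ip1 (-0.37, adjusted p = 0.23, and -0.37, adjusted p = 0.235), whose protein binds that of Psme3.

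AICAR and running were compared directly at 7 days. In DG ACR7 against RUN7, no member was called by limma (9 with unadjusted p under 0.05; all probes, 7.84%, none called), and 8 of 58 differences were above 0 (median -0.18). Psme4 was highest (0.59, adjusted p = 0.585, and 0.51, adjusted p = 0.562) and Psmd2 (-0.50, adjusted p = 0.625) and Psmd11 (-0.50, adjusted p = 0.562) lowest. In LEC ACR7 against RUN7, none was called (3 with unadjusted p under 0.05; all probes, 5.43%, with none called higher and 0.0736% lower), and 44 of 57 were above 0 (median 0.10), with Psmg3 (0.32) and Psmb6 (0.29) highest and the 2 probes of Psmd2 (-0.23 and -0.25) lowest. The ACR7 effect did not differ between DG and LEC for any member (limma, 8 with unadjusted p under 0.05; all probes, 17.5%, with 0.0459% larger and 0.0383% smaller in DG), the dim Psme4 probe (0.84, adjusted p = 0.0998) and Psmd4 (-0.76, adjusted p = 0.138) being the furthest apart. From ACR7 to ACR14 the AICAR effect changed for no member in DG (6 with unadjusted p under 0.05; all probes, 11.4%, none called), with Psmd5 at -0.74 (adjusted p = 0.419) and Psmd4 at 0.55 (adjusted p = 0.472). In LEC 11 had an unadjusted p under 0.05 with none called (all probes, 16.8%, with 0.0572% smaller), with Psme3 at 0.69 (adjusted p = 0.127), Psmd11 at -0.60 (adjusted p = 0.178) and Psme1 at -0.59 (adjusted p = 0.16).

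The 2 sets of CTR14 were treated alike but are labelled apart. Set 2 and ACR14 have mouse numbers 68 to 75, and all other groups 14 to 41. The difference between the sets may therefore include one between series of mice, which cannot be told apart here. It does not give the size of a difference within 1 series. In DG, 53 of 58 proteasome probes were higher in set 2 than in set 1, with a median of 0.22, against -0.00 over all probes. No member was called by limma (16 with unadjusted p under 0.05; all probes, 18.1%, with 0.0079% called higher and 0.0395% lower), and 28 had set 2 higher without overlap (all probes, 18.5%) and 2 lower (all probes, 19.4%). Psme2 had 0.85, 1.12 and 1.09 in set 2, against 0.31 and 0.32 in set 1 (0.71, adjusted p = 0.0945). Psme4 had 2.69, 2.82 and 2.82 in set 2, against 3.44 and 3.14 in set 1 (-0.51, adjusted p = 0.113), and its dim probe gave -0.60 (adjusted p = 0.199). Psmd2 gave 0.61 (adjusted p = 0.183) on its dimmer probe, which was above background on 3 of 3 arrays of set 2 and on none of 2 of set 1, or at least 1.36-fold higher in set 2. Psme2 and Psmd2 were higher and Psme4 lower between 2 groups of controls in DG, as between RUN7 and CTR7. All 3 choroid plexus probes were also higher in set 2 (median 2.76, none called), and their part in the result was not tested. In LEC set 2 against set 1 no member was called (9 with unadjusted p under 0.05; all probes, 7.69%), 35 of 57 were above 0 (median 0.03), and Psmd2 (0.64, adjusted p = 0.381) and Psmb5 (0.44, adjusted p = 0.31) were highest.

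**Figure D5:**
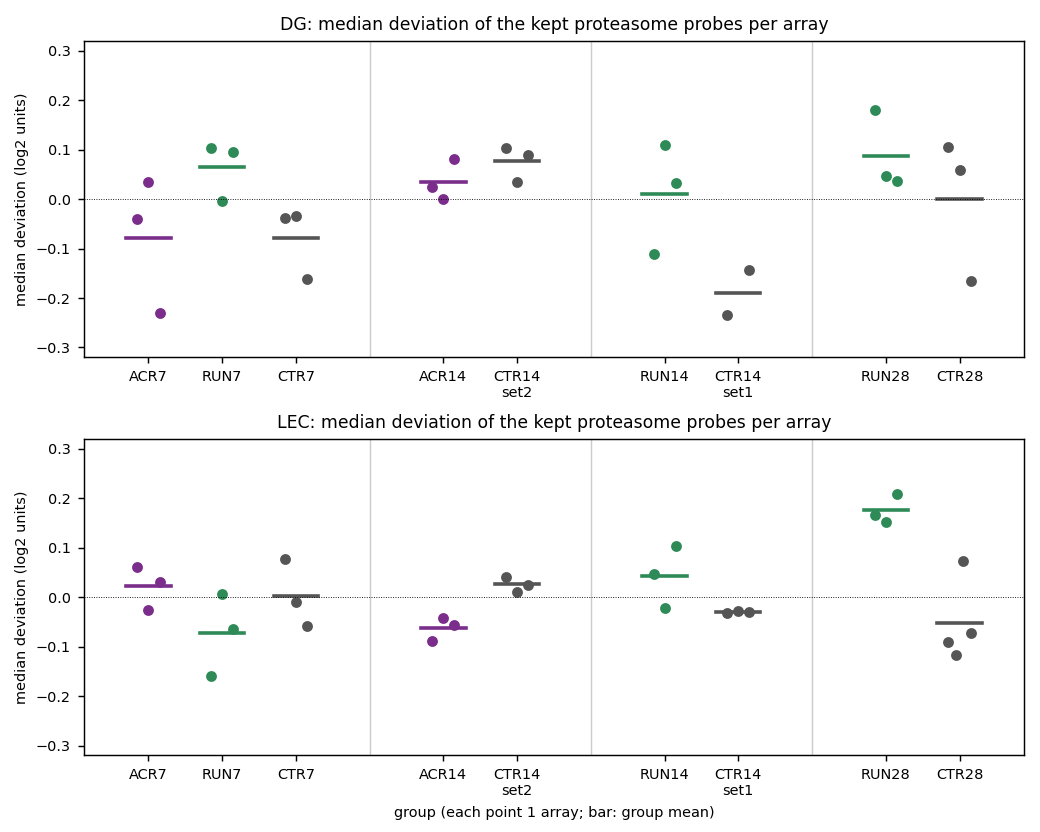
Median deviation of the kept proteasome probes from their tissue mean on each array (log2 units), by group, DG above and LEC below, each point 1 array and each bar a group mean. LEC RUN28 has the highest group mean (0.176), above CTR28 (-0.052), and in DG set 2 of CTR14 (0.076) stands above set 1 (-0.189).

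Across arrays the median deviation of the members was 0.176 (SD 0.0286) in LEC RUN28 and -0.052 (SD 0.0849) in LEC CTR28, where replicate 3 had the highest value of 0.0722. In DG it was 0.064 (SD 0.0596) in RUN7 and -0.0782 (SD 0.0721) in CTR7. Within groups, the members' deviations from their group means varied together. The correlation of a probe with the mean of the other members' genes had a median of r = 0.493 over 26 DG arrays and 0.383 over 28 LEC arrays. These correlations share the array, its RNA and its scaling, and are given as a description. The class median was 0.67 in DG and 0.624 in LEC for the constitutive beta ring and 0.456 in DG and 0.637 in LEC for the alpha ring, and the single highest probes were Psma7 at 0.804 in DG and Psma2 at 0.858 in LEC. The activators were split (median -0.0753 in DG and -0.0933 in LEC). In DG, Psme1 (0.67 and 0.481) and Psme2 (0.614) followed the other members, though less so in LEC (0.232 and -0.0933 for Psme1, 0.242 for Psme2). Psme4 at -0.826 in DG and -0.577 in LEC and Psme3 at -0.645 and -0.559 ran against the rest. Outside the activators the lowest were Psmd6 in DG (-0.456) and Psmd5 in LEC (-0.364). Between probes of 1 gene, the residual correlation was 0.918 in DG and 0.765 in LEC for Psma7 and 0.873 and 0.501 for Psmb10, but 0.0787 and 0.126 for Psmc5.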

How the data were processed

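Labelled RNA from DG and LEC was hybridised to Illumina mouse bead arrays, and the authors extracted values with GenomeStudio 1.6.0. The authors deposited non-normalized intensities with a detection p-value per probe and array, and normalized scores of the same arrays. The deposited scores were the same as the log2 intensities z-transformed within each array (largest difference 0 after rounding). Genes were named through the platform annotation, which gives 23978 of the 25697 probes a symbol and 1719 none. The members were matched to RefSeq genes, whose promoters come from GRCm38.p6.

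From the deposited intensities, log2 values were z-transformed within each array and multiplied by the mean array SD (1.855 in DG, 1.748 in LEC, 1.799 for both tissues together), so a difference is in log2 units but rests on each array having the same spread. Probes were kept with a detection p-value of at most 0.02 on every array of at least 1 group (12658 in DG, 12233 in LEC, 13067 in either). Each probe was tested with limma 3.58.1 (R 4.3.3, statmod 1.5.0), with 1 mean per group over all arrays of a tissue, which share an estimate of spread. Benjamini-Hochberg adjustment ran over all kept probes, with calls at an adjusted p under 0.05. Tissues were compared in 1 fit with the mouse as a random block (consensus correlation -0.062). The script was tested on simulated data. The number of arrays, 2 to 4 per group, limits the precision. An "at least" fold is given where a probe was above background on no array of 1 group and on every array of the other. It sets the mean of the brighter group against the mean, per array, of the higher of the probe's own value and the lowest value among detected probes.

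Genes were named by rule: every member called where at most 15 were called, otherwise the 8 largest differences in each direction, the 2 highest and 2 lowest differences of each treatment comparison, and always the catalytic and inducible beta subunits, activators, ubiquitin receptors, Psmd14, Psmg1 and Psmg2. Exceptions named after their values were seen are Psmb4, Psma3, Psmc2, Psmc3 and Psmc5 in LEC RUN28, Psmd7 and Psmd10 in DG RUN7, and the members of the 3 added comparisons. Members and gene lists were chosen with earlier results of these data known, and the comparisons of LEC RUN28 with RUN7 effects, LEC CTR28 with CTR7 and the DG with LEC RUN28 effect were added after seeing the data. Replicate numbers do not pair mice between groups. Alternatives were quantile normalization, neqc (offset 16), the deposited scores, no filter and a stricter filter (detection p of at most 0.01), 1 probe per gene, only the arrays compared, a replicate block, other 14-day controls, no mouse block, and leaving out each array.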

Additional observations from a re-analysis of the deposited data

Results flagged for a closer look

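In LEC CTR28, the one group of 4 arrays, each of 57 member probes was checked for an array far from the others (Dixon's test, which chance alone passes in about 1 in 20 groups), and 5 had one. Psmd6 was low on replicate 1 (-0.81, others -0.35 to -0.31) and Psmg2 was low on replicate 2 (1.34, others 1.55 to 1.57). Replicate 3 was high for Psmb2 (3.94, others 3.90 to 3.91), Psmb6 (4.37, others 3.80 to 3.90) and Psme1 (2.64, others 2.27 to 2.31). Without replicate 3, 20 members were called in LEC RUN28 against CTR28 (all probes, 929 higher and 1240 lower).

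For 16 member probes the LEC running effect differed between day 28 and day 7 in an interaction test by limma. The comparison was added after seeing the data, and its count moved when arrays were left out, as given above. All 16 had the larger effect at day 28, against 7.62% of all probes with a larger and 8% with a smaller one. In the core these were Psmb10 (0.81, adjusted p = 0.0102, and 0.76, adjusted p = 0.00863), Psma7 (0.66, adjusted p = 0.00958, and 0.62, adjusted p = 0.0111), Psmb7 on 1 of 3 probes (0.60, adjusted p = 0.0104), Psmb6 (0.58, adjusted p = 0.0388), Psma5 (0.57, adjusted p = 0.0341), Psmb3 (0.56, adjusted p = 0.0135), Psmb5 (0.53, adjusted p = 0.0335), Psma2 (0.51, adjusted p = 0.027) and Psma4 (0.49, adjusted p = 0.0195). In the cap they were the ATPases Psmc5 on 1 of 2 probes (0.56, adjusted p = 0.0238), Psmc3 (0.51, adjusted p = 0.0101) and Psmc2 (0.44, adjusted p = 0.0379), and among the chaperones Psmg3 (0.59, adjusted p = 0.00316) and Psmd10 on 1 of 3 (0.43, adjusted p = 0.0443). Between tissues, the RUN7 effect differed for Psme2 (DG minus LEC 0.84, limma, adjusted p = 0.0249; all probes, 1.28% larger and 1.28% smaller).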

How the results depend on the processing

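Each called probe was followed through the alternatives, but for DG against LEC only the 8 largest differences in each direction. None of these changed sign, and 1498 probe and setting pairs stayed on their side of the threshold while 199 lost their call. The DG against LEC probes had 59 to 61 settings each, and there only Psmd4 lost its call, in 2. In DG RUN7 the called probes lost theirs in 3 (Psmd11) to 9 settings (Psme2 and Psme4). In LEC RUN28 they did so in 0 (Psmb3 among others) to 11 (Psma5). Counts of called members were least stable in the running comparisons. In DG RUN7 (5 calls) the count was 3 with quantile normalization, without the filter or with 1 probe per gene, 2 with neqc, 1 with only the arrays compared, and 0 to 9 leaving out an array. In LEC RUN28 (15 calls) it was 9 with only the arrays compared and 3 to 20 leaving out an array. Leaving out an array, the probes called higher over the whole array also moved, from 1 to 878 in DG RUN7 and from 181 to 929 in LEC RUN28. Other counts leaving out an array were 0 to 1 for DG RUN28, LEC RUN7 and LEC ACR14, 0 to 2 for LEC ACR7, 8 to 20 for the LEC RUN28 effect minus the RUN7 effect, 0 to 10 for LEC CTR28 against CTR7, and 0 to 3 for the DG minus LEC RUN7 and RUN28 effects. For these comparisons the counts over all probes in each setting are not given. DG RUN28 had 1 call with quantile, neqc or no filter, LEC ACR7 had 1 with quantile, LEC ACR14 had 1 with all or with the other 14-day controls, and LEC CTR28 against CTR7 had 2 with only the arrays compared. Medians over the members moved most with the 14-day controls in DG: that of ACR14 was -0.02, but 0.0615 with all controls and 0.186 with set 1, that of RUN14 was 0.12, but 0.0057 with all and -0.0921 with set 2, and that of the ACR14 minus the ACR7 effect was -0.03, but 0.058 and 0.195. Leaving out an array, medians ran from 0.187 to 0.315 for DG set 2 against set 1 (0.266 with neqc), 0.0147 to 0.0423 for LEC set 2 against set 1 (0.0399 with quantile and 0.0398 with neqc), -0.064 to -0.0375 for LEC ACR14 and -0.161 to -0.0684 for the LEC ACR14 minus the ACR7 effect (-0.144 with neqc), and the DG minus LEC RUN7 median was 0.29 with neqc. Same-numbered arrays of compared groups come from separate mice, with correlations of their deviations of -0.333 to 0.392 and in no comparison all above 0.1, so the numbers do not pair them. With the replicate block the count was 5 in LEC RUN28 and 4 in DG RUN7, with 0 calls in the other 8 comparisons fitted with it. Those included ACR7 against RUN7 but not ACR14, for which the block was not fitted. The slide alternative was not run because the files name no slide. The causes were not tested. Probes such as Psmb9, Psmd6, Psmd9, the dim probes of Psmd2, Psmd11 and Psme4, and Psmb8 lie near background, which limits their differences.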
